A study of Danio rerio with 31 samples.

Results

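The comparison covers 7 of the 31 arrays of the series: 3 arrays labelled mitfa morphant, 2 of control morphants and 2 of wild type (WT) zebrafish larvae of the AB strain, sampled at 48 and 50 hours post-fertilization (hpf). The members were taken by their labels, and no measured value was used. A morphant is a larva injected at the 1- to 2-cell stage with a morpholino, an antisense oligonucleotide. The mitfa morpholino covers the start codon region of mitfa and was used at 9 or 13 ng, and the control morphants received the standard control morpholino. Each morpholino sample pooled 40 whole larvae by the labels. At 48 hpf there was 1 array of each group, and at 50 hpf there were 2 mitfa morphant arrays, 1 control and 1 WT array. Values are listed with 48 hpf first. The 2 mitfa morphant arrays at 50 hpf are listed as rep1 and then rep 2 of their labels. The supplementary methods of the study give 9 and 13 ng to the 2 mitfa morphant samples at 50 hpf, under names that the labels do not carry. The 2 arrays may thus differ in dose. The labels do not say which array received which dose, so the doses were not compared. The question was which genes beyond pigment synthesis differ when mitfa is targeted in the early larva.

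Mitfa is a transcription factor of the neural crest that is needed for the black pigment cells (melanophores) of the zebrafish trunk, and it is also made in the retinal pigment epithelium. A start codon morpholino blocks translation and leaves the transcript in place, so the mRNA level does not report whether the protein was lost. The p53 pathway responds to DNA damage and to faults in ribosome assembly by switching on genes of cell cycle arrest and apoptosis, and in zebrafish it is known as one that injected morpholinos can switch on. In a larva of this age the retina, the brain and the hypothalamus are still adding and maturing neurons. These points are background and are not results of the arrays.

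The 7 arrays correlated at r = 0.968 to 0.991 with each other over the detected probes, and 71.3 to 75.3% of the spots of an array lay well above background, with 0 saturated spots. The median processed signal was 41.9 to 60.4, so that many probes were measured not far above background. The 48 hpf arrays were on 1 slide and the 50 hpf arrays on the other, so slide and age cannot be told apart. WT always lay in the first position of a slide, the control morphant in the second and the mitfa morphants further on, so position and treatment cannot be told apart either. The labels do not say that the samples came from separate clutches or injections, so the p-values measure the spread between these 7 samples, which may be partly technical. All values below are log2 processed signals after quantile normalization, and a difference is the mean of the 3 arrays labelled mitfa morphant minus the mean of the 4 other arrays. The log2 differences had a median of 0.04 over 10384 genes with a detected probe, each gene read on the brightest of its detected probes.

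The targeted transcript itself went up, not down, in the arrays labelled mitfa morphant. mitfa read 11.95, 11.57 and 11.45 in the labelled morphants, 8.46 and 7.93 in the control morphants and 8.47 and 7.83 in WT, a difference of 3.48 ± 0.21 (SE, n = 3 against 4; adjusted p = 0.00128), or 11.2-fold. All 3 mitfa probes gave this difference, at 3.46 to 3.48. The level therefore sets the labelled arrays apart from the rest but does not check the knockdown, and every direction below is that of the arrays as labelled. The duplicate gene mitfb was well above background on 2 of the 3 labelled morphant arrays and on 0 of the 4 others, and was not tested.

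Of 30505 detected probes, 135 (0.443%) were called lower and 231 (0.757%) were called higher in the labelled morphants by limma with Benjamini-Hochberg adjustment at 5%. In all of these 366 probes the 3 labelled arrays lay outside the range of the 4 others. By gene, 49 of 10384 (0.472%) were called lower and 118 (1.14%) higher. The calls rested on a narrow margin, since 324 of the 366 had an adjusted p between 0.045 and 0.05, and without any one of the 7 arrays only 3 to 43 probes were called lower and 4 to 77 higher. With age as a block, 6 probes were called lower and 13 higher. The groups were more widely separated than these counts show: in 1232 genes (11.9%) all 3 labelled arrays lay below all 4 others, and in 1652 (15.9%) all 3 lay above them. Genes with such separated arrays are called apart below, and only genes that also passed the adjusted limit are said to have risen or fallen. mitfa and yars2 passed in all 7 of the fits that left out 1 array, and bbc3 in 6.

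The 15 genes with the greatest fall included peptide, retinal and neural transcription factor genes. oxt, which encodes the hypothalamic peptide oxytocin, had the lowest difference, and its values are given with the other peptides. fads2, the desaturase of long polyunsaturated fatty acid synthesis, read 6.51, 5.98 and 6.06 in the labelled morphants against 7.45 and 7.66 in control morphants and 7.86 and 8.55 in WT. It thus fell 3.25-fold, with a log2 difference of -1.70 ± 0.27 (adjusted p = 0.0473), and its other probe fell by a like amount. sp5l, a Wnt-responsive transcription factor, fell 2.86-fold (-1.51 ± 0.21, adjusted p = 0.0473), and mlpha, which links pigment granules to the motor of their transport, fell 2.63-fold (-1.40 ± 0.24). The neural transcription factor genes were pou4f4 at -1.20, sox14 at -1.14 and sox12 at -1.04 on the log2 scale. zfpm2b, a cofactor of GATA factors, differed by -1.37 and mab21l3, of the mab21 family, by -1.26. dab1b, an adaptor of reelin signalling in migrating neurons, differed by -1.06, and ckbb, the brain form of creatine kinase, by -1.04. The list was completed by pou4f2, tfap2b and pth2, described below with their groups, and by zgc:153240 at -1.04.

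The 15 genes with the greatest rise were led by mitfa and included mdm2, bbc3, casp8 and phlda3 of the p53 list. rspo1, a secreted enhancer of Wnt signalling, read 9.86, 10.23 and 9.81 in the labelled morphants against 8.12 and 7.26 in control morphants and 6.61 and 7.31 in WT, a 6.24-fold rise (log2 2.64 ± 0.32, adjusted p = 0.0403). lnx1, a ubiquitin ligase that binds Numb in mammals, read 11.62, 11.78 and 11.82 against 10.31 and 9.59 in control morphants and 8.76 and 9.23 in WT, a 4.81-fold rise. Its control morphant arrays both lay above its WT arrays. The rise with the lowest adjusted p after mitfa was that of yars2, the mitochondrial tyrosyl-tRNA synthetase, at 10.42, 10.39 and 10.31 against 8.86 and 8.86 in control morphants and 8.66 and 8.80 in WT (2.98-fold, log2 1.58 ± 0.11, adjusted p = 0.00228). With age as a block yars2 differed by 1.58 (adjusted p = 0.00917). vrk2, a serine/threonine kinase, and lyrm1 rose by 1.67 and 1.71 on the log2 scale, each on both of its probes. The ammonium transporter gene rhcga of the skin and gills rose by 1.58, the GTPase gene gtpbp1l by 1.37, zgc:153896 by 1.60 and zgc:162608 by 1.37.

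The 20 functional lists gathered 1011 distinct symbols, of which 678 had a detected probe, and 49 of these members (7.23%) were called in either direction. Over all genes detected the calls amounted to 0.472% lower and 1.14% higher. The lists were chosen with earlier results of these data known, so the shares here and below describe the members and test no list. At an unadjusted p under 0.05 by limma, 1137 of the 10384 genes were lower and 1509 higher, the background for the unadjusted counts below. The lists differed in both direction and number of calls. Ribosome biogenesis had 21 members called higher, p53 response 8 higher and 1 lower, and retinal transcription factors 7 lower. Melanophore and pigment synthesis had 2 called lower and 1, mitfa itself, called higher. The other lists had at most 2 calls each, and 7 had none.

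**Figure D1:**
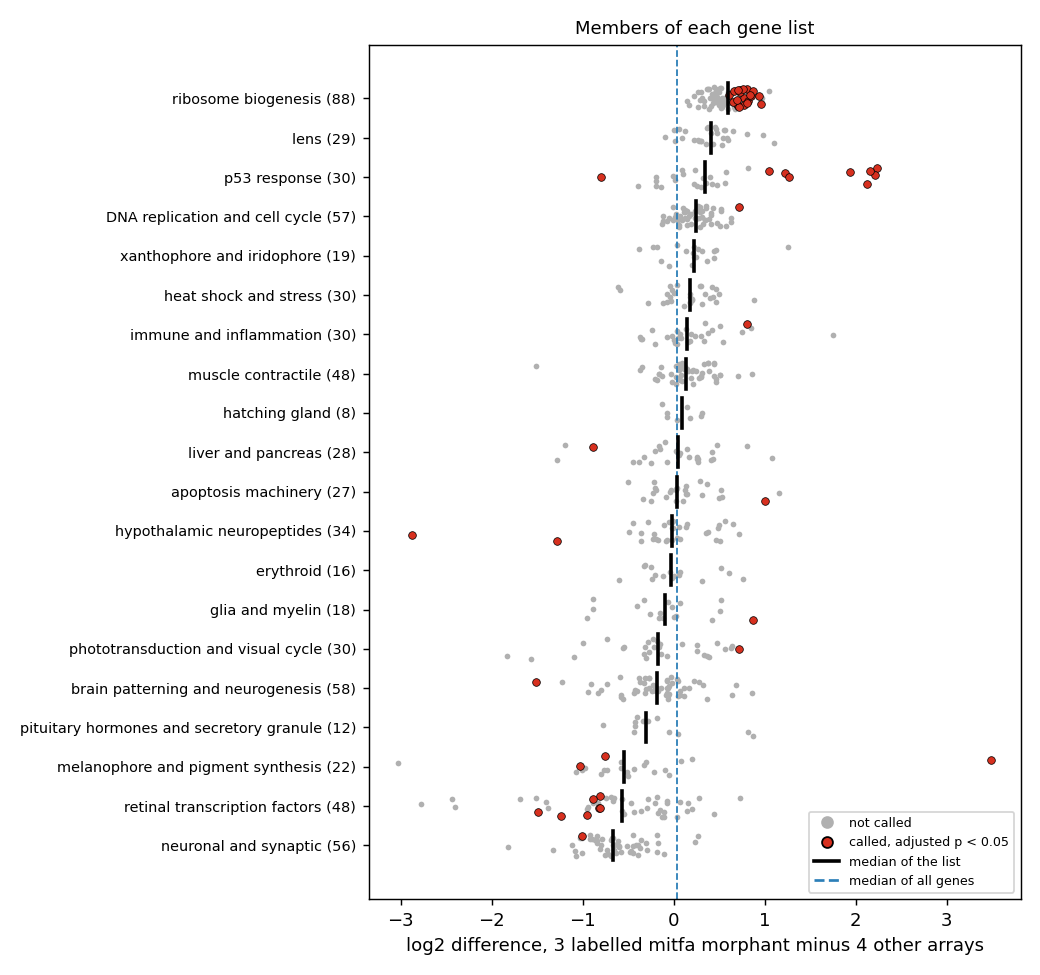
Log2 difference between the 3 arrays labelled mitfa morphant and the 4 other arrays (x axis) for every detected member of each list (y axis, number detected in brackets); red points passed the adjusted limit, black bars mark the list median and the dashed line the median of all genes. Ribosome biogenesis members all lie to the right of 0, the called p53 genes reach above 2, and the neuronal and retinal lists have the lowest medians.

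The p53 response list was called higher in 8 of 30 detected members, against 1.14% of all genes, and 14 lay apart above the other arrays against 15.9% of all genes. Its median difference was 0.34. Without any one of the 7 arrays, 0 to 7 members of the list were called higher.

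mdm2 encodes the ubiquitin ligase that holds the pathway in check and is itself one of its targets. It read 11.52, 11.82 and 11.65 in the labelled morphants, 10.43 and 9.82 in control morphants and 9.35 and 9.30 in WT, a 3.84-fold rise (log2 1.94 ± 0.27, adjusted p = 0.0473). Its relative mdm4, which also keeps the pathway inactive, was the only member called lower, at 10.07, 10.16 and 10.14 against 10.87 and 10.79 in control morphants and 10.97 and 11.08 in WT (log2 -0.80 ± 0.11, adjusted p = 0.0473). These regulators of the pathway thus moved in opposite directions on the same arrays.

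Wider rises were in bbc3, casp8 and phlda3. bbc3, which encodes the BH3 protein Puma, read 8.34, 8.89 and 8.60 in the labelled morphants against 6.56 and 6.57 in control morphants and 6.11 and 6.35 in WT (4.64-fold, log2 2.22 ± 0.17, adjusted p = 0.0052). casp8, the initiator caspase of death receptors, read 8.45, 8.70 and 8.70 against 7.07 and 6.93 in control morphants and 5.87 and 5.97 in WT (4.47-fold, adjusted p = 0.0473). phlda3, an inhibitor of Akt signalling, read 10.37, 10.67 and 10.65 against 8.81 and 8.52 in control morphants and 8.13 and 8.29 in WT (4.37-fold, adjusted p = 0.0083). With age as a block bbc3 (adjusted p = 0.0119) and phlda3 (adjusted p = 0.0325) stayed past the limit and the other 6 did not. Of the arrest and stress genes, gadd45aa rose by 1.27 ± 0.18, ccng1 by 1.22 ± 0.21 and sesn3 by 1.05 ± 0.19 on the log2 scale. ccng1, the cyclin G gene, had 3 probes, all called higher. Members that were apart above the other arrays without passing the limit were baxa (0.57, adjusted p = 0.0531), sesn2 (0.81), plk3 (0.56), tp73 (0.47), triap1 (0.39) and pcna (0.32). ei24 was apart below them at -0.39.

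**Figure D2:**
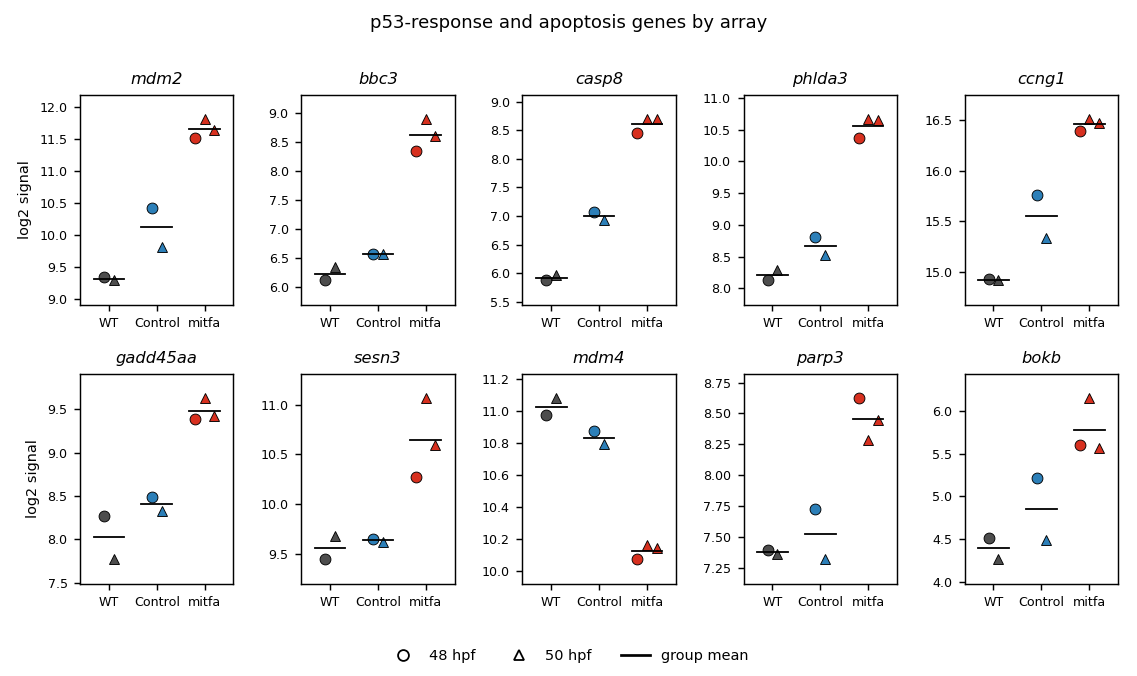
Log2 signal (y axis) of p53-response and apoptosis genes on each WT, control morphant and labelled mitfa morphant array (x axis); circles are 48 hpf, triangles 50 hpf and lines group means. The labelled morphants lie apart in every panel, and for mdm2, bbc3, casp8, phlda3, ccng1 and gadd45aa both control morphant arrays lie above both WT arrays.

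The control morphants were compared with WT in a fit of all 3 groups, since both share the comparison group above. casp8 was 1.08 higher in control morphants than in WT on the log2 scale, mdm2 0.80 and ccng1 0.63 higher, while sesn3 differed by 0.07 and bbc3 by 0.33. None of these passed the limit with 2 arrays a side (adjusted p = 0.236 for casp8). The labelled morphants minus the control morphants alone gave 2.05 for bbc3, 1.90 for phlda3 and 1.62 for casp8 in the same fit, all 3 past the limit. For mdm2 this difference was 1.54 and did not pass (adjusted p = 0.078 by limma). Over the p53 list, the median of control minus WT was 0.19, and that of labelled morphant minus control was 0.29. Over all 30505 probes, control minus WT had 1 call, lower and without a gene symbol. At an unadjusted p under 0.05 by limma there were 3973, a larger share than the 0.05 expected by chance. The single call therefore does not show that control morphants and WT were alike. In the same fit, labelled morphant minus control had 3 probes called lower and 24 higher. Labelled morphant minus WT had 203 called lower and 389 higher. Control morphants lay on the labelled side of WT in 32 of the 49 genes called lower and 84 of the 118 called higher.

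The wider apoptosis list was not shifted as a whole, with a median of 0.03 over 27 detected members and 1 call. parp3, a DNA repair ADP-ribosyltransferase, rose by 1.00 ± 0.14 (adjusted p = 0.0473), at 8.63, 8.29 and 8.45 against 7.73 and 7.32 in control morphants and 7.40 and 7.36 in WT. bokb, a Bcl-2 family gene, was apart above the others at 1.15 without passing (adjusted p = 0.0578), and the executioner caspase gene casp3a was apart below them at -0.50 (adjusted p = 0.0656). Of 30 stress and chaperone genes, 0 were called by limma, with 6 above and 2 below at an unadjusted p under 0.05. Of all 10384 genes, 1509 were above and 1137 below at that limit. ddit3 lay at 0.46 and the endoplasmic reticulum chaperone gene hspa5 at -0.61.

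Ribosome biogenesis gave the most uniform shift. These genes encode the nucleolar factors that process ribosomal RNA and assemble the subunits. Of 117 listed, 88 were detected, 21 were called higher against 1.14% of genes, 0 were called lower and 76 lay apart above the other arrays against 15.9%. The median difference was 0.59, at 0.51 at 48 hpf and 0.65 at 50 hpf, and it was 0.49 against control morphants alone and 0.67 against WT alone. The sizes were small, but in most members the labelled arrays lay apart from the others. npm1a, a nucleolar chaperone gene, read 11.35, 11.52 and 11.46 in the labelled morphants, 10.64 and 10.55 in control morphants and 10.55 and 10.20 in WT (log2 0.96 ± 0.14, adjusted p = 0.0473). utp4, of the small subunit processome, read 11.74, 11.98 and 11.57 against 10.79 and 10.85 in control morphants and 10.88 and 10.83 in WT (0.93 ± 0.13). noc4l, also needed for the small subunit, read 10.79, 10.93 and 10.97 against 10.08 and 10.12 in control morphants and 10.06 and 10.10 in WT (0.81 ± 0.10). For utp4 and noc4l the 4 other arrays spanned a narrow range below the labelled ones. For npm1a they also lay below but ran more widely, from 10.20 to 10.64. Large subunit factors rose as well, with nip7 at 0.87, mrto4 at 0.85, sdad1 at 0.83 and gnl3l at 0.76, as did the shared RNA polymerase I and III subunit genes polr1c (0.69) and polr1d (0.81). pes had the widest difference, 1.05, but its WT arrays read 11.94 and 11.18 and it did not pass. Without any one array, 0 or 1 members of the list were called. With age as a block 0 were called by limma, with 75 above at an unadjusted p under 0.05, and after scaling to the 75th percentile 7 were called. Other settings called more: 58 higher after normexp background correction and 55 higher with the mean of a gene's probes.

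Genes of DNA replication and the cell cycle leaned the same way by less. The median was 0.25 over 57 detected members, 18 lay apart above the other arrays (15.9% of all genes did) and 1 was called. That was orc3, of the origin recognition complex, at 10.94, 11.02 and 10.84 against 10.32 and 10.11 in control morphants and 10.36 and 10.09 in WT (0.71 ± 0.12, adjusted p = 0.0473). Its other probe was apart without passing. The checkpoint kinase genes chek1 (0.51) and chek2 (0.52) and the clamp loader gene rfc5 (0.63, adjusted p = 0.0531) were apart without passing. Against control morphants alone the median was 0.12, and control minus WT had a median of 0.21.

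**Figure D3:**
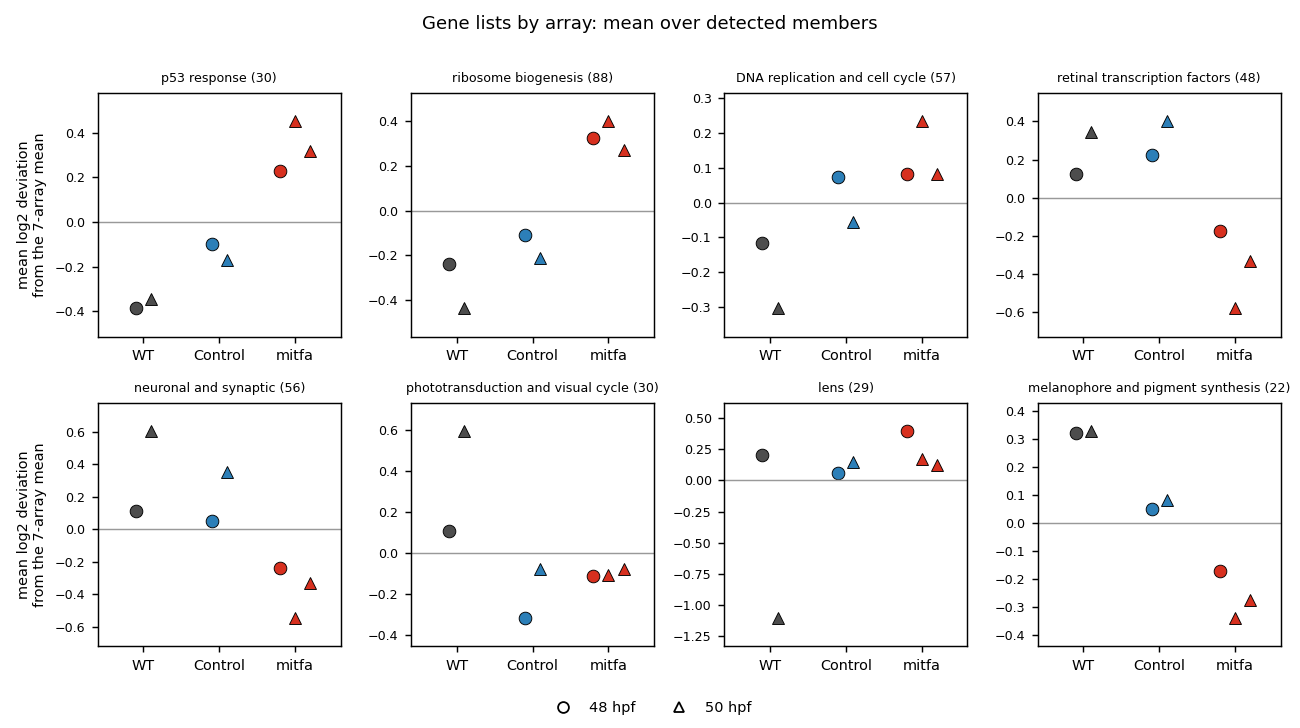
Mean log2 deviation of the detected members of a list from their 7-array mean (y axis) on each WT, control morphant and labelled mitfa morphant array (x axis); circles are 48 hpf, triangles 50 hpf, and the number of members is in brackets. The labelled arrays lie above the rest for p53 response and ribosome biogenesis and below them for retinal transcription factors, neuronal and melanophore genes, while the lens list is set by the WT array at 50 hpf.

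The retinal transcription factors lay mostly below the other arrays. Of 58 listed, 48 were detected, 7 were called lower against 0.472% of genes, 0 higher, and 24 lay apart below against 11.9%. The median was -0.57, at -0.32 at 48 hpf and -0.76 at 50 hpf. It was -0.66 against control morphants alone and -0.52 against WT alone. The calls included genes of the inner retina. pou4f2, which specifies retinal ganglion cells, read 7.55, 6.72 and 7.39 in the labelled morphants against 8.30 and 8.79 in control morphants and 8.58 and 9.17 in WT, a 2.81-fold fall (-1.49 ± 0.26, adjusted p = 0.0473). tfap2b, of amacrine and horizontal cells, read 10.84, 10.11 and 10.63 against 11.52 and 11.82 in control morphants and 11.63 and 12.07 in WT (-1.24 ± 0.21, adjusted p = 0.0473), and all 3 of its probes were apart. prox1a, of horizontal cells and also of the liver and lymphatic vessels, read 8.26, 8.18 and 8.25 against 8.83 and 9.22 in control morphants and 9.04 and 9.40 in WT (-0.89 ± 0.15). In these 3 genes the lowest labelled array was the first of those at 50 hpf. The other falls were bhlhe22 at -0.95, barhl2 at -0.83, lhx9 at -0.81 and mab21l1 at -0.81, all of which are also active in parts of the brain. Without any one array, 0 to 4 members of the list were called lower. Of the 7 genes called here, only prox1a was called in any of those fits, in 1 of them. With age as a block 0 members were called by limma, with 28 below and 1 above at an unadjusted p under 0.05, and after scaling to the 75th percentile 0 were called. Other settings called more: 18 lower after normexp background correction and 18 lower with the mean of a gene's probes. In whole larvae, fewer cells of a type and less RNA per cell cannot be told apart.

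The largest differences of the list were in photoreceptor and bipolar cell genes, which varied more between arrays and did not pass. crx, the homeobox gene of photoreceptors and the pineal, read 10.14, 7.97 and 9.86 in the labelled morphants, 11.39 and 12.03 in control morphants and 12.02 and 12.94 in WT (-2.77 ± 0.55, adjusted p = 0.0531). vsx1, of bipolar cells, read 8.75, 7.49 and 8.65 against 9.78 and 10.71 in control morphants and 10.77 and 11.57 in WT (-2.41 ± 0.44, adjusted p = 0.0506). six7, of cone precursors, read 8.80, 6.39 and 8.52 against 9.76 and 10.06 in control morphants and 10.45 and 11.06 in WT (-2.43 ± 0.57, adjusted p = 0.0675). In each the arrays were apart, the first labelled array at 50 hpf was the lowest and the WT array at 50 hpf the highest. neurod1 (-1.41), neurod6a (-1.69), neurod6b (-1.52) and otx5 (-1.38) were likewise apart below. For the neurod genes the control morphants also lay below WT, by -1.06 for neurod1 and -1.39 for neurod6a. Genes of the early eye field differed by less: six3a by -0.57, six6b by -0.66, pax6b by -0.44 and pax6a by -0.36, all apart below, whereas rx2 was apart above at 0.28. bhlhe23, needed for rod bipolar cells in the mouse, was well above background on all 4 other arrays and on 0 of the labelled ones. Set against the lowest signal that counted as above background on the labelled arrays, it was at least 4.54-fold lower there. bhlhe23 did not pass the detection filter and was not tested, and the direction of this bound follows from where it was detected.

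**Figure D4:**
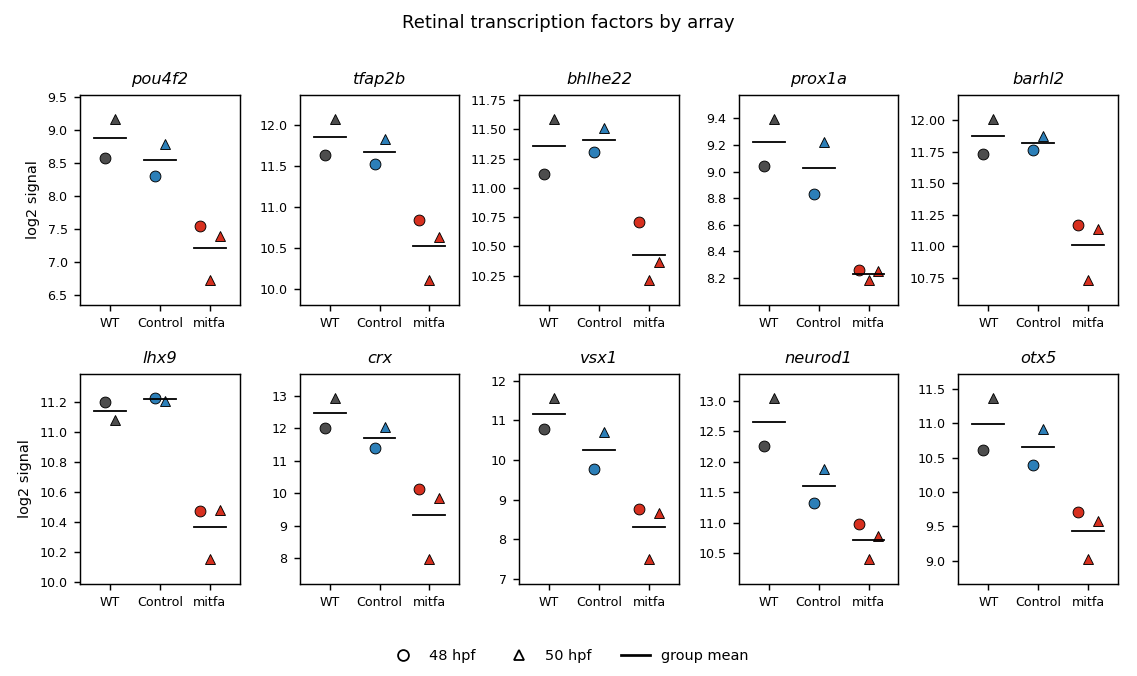
Log2 signal (y axis) of 10 retinal transcription factors on each WT, control morphant and labelled mitfa morphant array (x axis); circles are 48 hpf, triangles 50 hpf and lines group means. All 3 labelled arrays lie below the other 4 in every panel; the first 6 genes were called and crx, vsx1, neurod1 and otx5 were not.

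Phototransduction genes, which act downstream of these factors in photoreceptor outer segments, were sparsely measured. Of 49 on the array 30 were detected, with a median of -0.17. Of these, 1 lay apart below and 4 above (3.33% and 13.3%, against 11.9% and 15.9% of all genes). By limma 5 were lower and 6 higher at an unadjusted p under 0.05, so the list had no shared direction. After adjustment 0 were called lower and 1 was called higher. That was unc119b, a carrier of lipid-modified proteins that is expressed beyond the eye, at 8.84, 9.04 and 8.83 against 8.39 and 8.12 in control morphants and 8.17 and 8.07 in WT (0.71 ± 0.13, adjusted p = 0.0486). rcvrn2, a recoverin gene, read 5.92, 5.95 and 6.22 in the labelled morphants, 6.48 and 7.27 in control morphants and 8.19 and 9.50 in WT (-1.83 ± 0.62, adjusted p = 0.136). The red cone opsin gene opn1lw2 read 4.51, 5.69 and 5.27 in the labelled morphants, 3.90 and 5.94 in control morphants and 6.17 and 9.02 in WT, with the labelled and control morphants overlapping. In these 2 genes the WT array at 50 hpf was the highest. Across the list the median of control minus WT was -0.26, and labelled morphant minus control was 0.12.

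The lens list had a median of 0.41 and 0 calls in 29 detected members, with 1 at an unadjusted p under 0.05. That shift rested on 1 array. On average the members deviated from their 7-array mean by -1.11 on the WT array at 50 hpf and by 0.06 to 0.40 on the other 6. cryaa, for alphaA-crystallin, read 11.38, 11.12 and 10.84 in the labelled morphants and 11.01 and 10.98 in control morphants, with 10.82 and 9.36 in WT at 48 and 50 hpf. Without the WT array at 50 hpf the median was 0.08. The crystallin genes are a family of near copies, and probes of the gamma crystallins may share signal.

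Neuronal and synaptic genes lay below the other arrays as a group. Of 56 detected, 30 were apart below against 11.9% of genes, 0 were apart above, and the median was -0.67. It was -0.29 at 48 hpf and -0.94 at 50 hpf. 1 gene was called, stmn2b, a growth cone regulator of microtubules, at 12.70, 12.36 and 12.55 in the labelled morphants, 13.37 and 13.65 in control morphants and 13.27 and 13.88 in WT (-1.01 ± 0.17, adjusted p = 0.0473). Inhibitory neuron genes were among those apart: the GABA transporter gene slc6a1b (-1.12, adjusted p = 0.0531), the vesicular transporter gene slc32a1 (-0.92, adjusted p = 0.0531), and gad1b (-0.86) and gad2 (-0.74) of GABA synthesis. The excitatory vesicular transporter genes slc17a6a (-0.61) and slc17a6b (-0.45) and the release machinery genes snap25b (-1.03) and vamp2 (-0.81) were apart below as well. The pan-neuronal gene elavl3 differed by -0.39. With age as a block 0 members were called by limma, and 41 were at an unadjusted p under 0.05 below the others without it. Scaling to the 75th percentile gave 0 calls. Normexp background correction gave 12 calls lower and the mean of a gene's probes 14.

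Glial and patterning genes differed less. fabp7b, a fatty acid binding protein gene, rose to 11.17, 11.22 and 11.55 from 10.45 and 10.37 in control morphants and 10.52 and 10.42 in WT (0.88 ± 0.13, adjusted p = 0.0473), while its duplicate fabp7a, a radial glia marker, was apart below at -0.95 (adjusted p = 0.0769). The glutamate transporter gene slc1a2b was apart below at -0.89. Of 58 patterning and neurogenesis genes, sp5l alone was called, against 0.472% of all genes called lower. 16 were apart below and 3 above (27.6% and 5.17%, against 11.9% and 15.9% of all genes), and the median was -0.18. The forebrain and hindbrain interneuron genes lhx1a (-0.94) and lhx5 (-0.80) and the hypothalamic factor gene otpb (-0.90), which in zebrafish is needed for oxytocin neurons, were apart below. The Wnt effector genes tcf7l2 (-0.73 ± 0.17, adjusted p = 0.0637) and lef1 (-0.58 ± 0.13, adjusted p = 0.0659) were apart below without passing. Another tcf7l2 probe overlapped at -0.63 (adjusted p = 0.143).

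The neuropeptides did not move together. Of 34 detected, 2 were called lower, against 0.472% of all genes, and 0 higher. 3 were apart below and 5 above (8.82% and 14.7%, against 11.9% and 15.9% of all genes), and the median was -0.02. oxt read 4.280, 3.204 and 3.658 in the labelled morphants, 5.394 and 6.622 in control morphants and 6.498 and 7.851 in WT, a 7.35-fold fall (-2.88 ± 0.52, adjusted p = 0.0493). Its probe was well above background on 2 of the 3 labelled arrays and on all 4 others. On the first labelled array at 50 hpf it was not, so the reading there and the size of the fall are uncertain. The 4 other arrays themselves spanned over 2 log2 units, with the control morphant at 48 hpf the lowest and WT at 50 hpf the highest. avp, for the sister peptide vasopressin made by neighbouring neurons, read 8.57, 8.71 and 8.79 against 8.34 and 8.93 in control morphants and 8.65 and 9.07 in WT, and the groups overlapped (-0.06 ± 0.18, adjusted p = 0.886). pth2, a thalamic peptide gene that in zebrafish follows the presence of other fish, read 3.86, 3.18 and 3.79 against 4.68 and 4.88 in control morphants and 4.92 and 5.11 in WT (-1.29 ± 0.19, adjusted p = 0.0473). Both calls were lost with age as a block (adjusted p = 0.0675 for oxt and 0.0675 for pth2).

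5 peptides lay above the other arrays without passing, a share (14.7%) under that of all genes (15.9%). The hypocretin gene hcrt, of wakefulness, read 5.48, 5.67 and 5.44 against 5.04 and 4.93 in control morphants and 5.08 and 4.49 in WT (0.65 ± 0.17, adjusted p = 0.0787). The gonadotropin-releasing hormone genes gnrh2 (0.49, adjusted p = 0.0843) and gnrh3 (0.71, adjusted p = 0.11) and the appetite peptide genes cart4 (0.56) and cart2 (0.46) were apart in the same way. crhb, for the releasing hormone of the stress axis, was apart below at -0.36 (adjusted p = 0.168). The remaining members overlapped, among them npy (-0.09), sst1.1 (-0.23), trh (-0.45) and vip (-0.36).

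Of 12 detected pituitary and secretory granule genes, 0 were called by limma, 4 were at an unadjusted p under 0.05 below and 2 above. Of all 10384 genes, 1137 were below and 1509 above at that limit. The carboxypeptidase gene cpe, which trims peptide precursors, read 10.72, 10.13 and 10.27 against 11.11 and 11.21 in control morphants and 10.92 and 11.36 in WT (-0.78 ± 0.17, adjusted p = 0.0621). The convertase gene pcsk1 (-0.43) and the granin genes scg2b (-0.42) and chgb (-0.34) were apart below too. The hormone genes did not share that direction: pomca, the precursor of melanocyte-stimulating hormone, was at -0.49 with overlapping groups, gh1 at 0.05, prl at 0.87 and tshba, apart above, at 0.82.

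**Figure D5:**
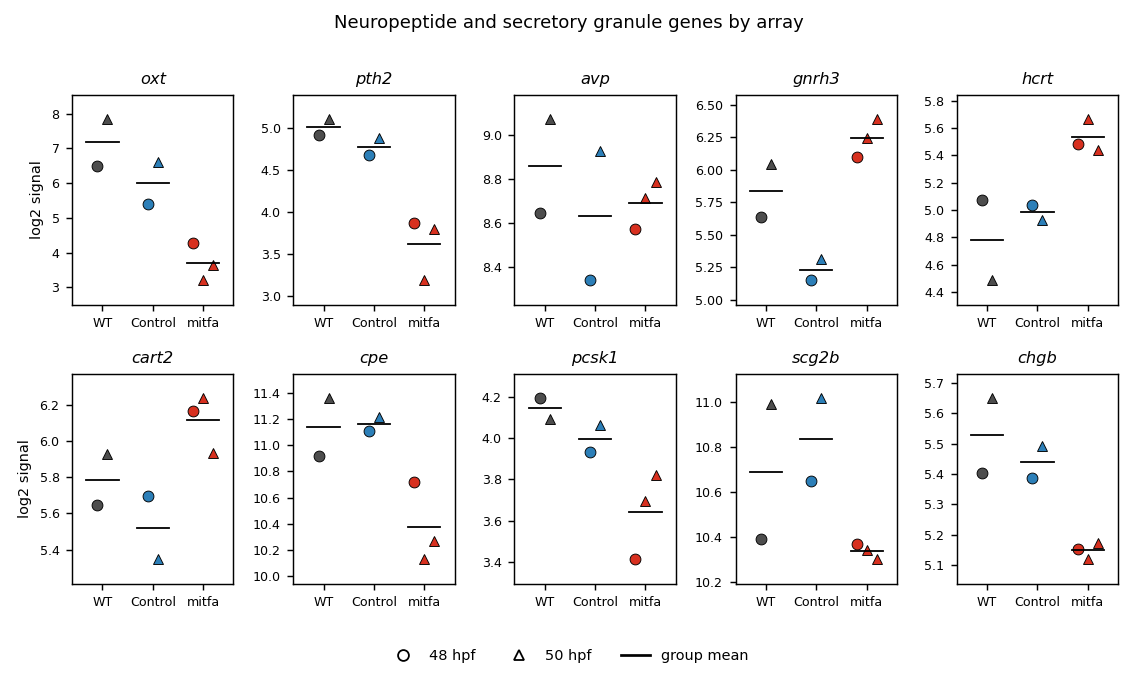
Log2 signal (y axis) of neuropeptide and secretory granule genes on each WT, control morphant and labelled mitfa morphant array (x axis); circles are 48 hpf, triangles 50 hpf and lines group means. oxt and pth2 are lower on the labelled arrays, avp overlaps, gnrh3, hcrt and cart2 lie above, and cpe, pcsk1, scg2b and chgb lie below.

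The melanophore genes lay mostly below the other arrays. tyrp1b, of melanin synthesis, read 12.88, 12.62 and 12.78 in the labelled morphants, 13.63 and 13.53 in control morphants and 13.83 and 14.16 in WT (-1.03 ± 0.17, adjusted p = 0.0473), and the melanosome matrix gene pmela fell by 0.75 ± 0.13 (adjusted p = 0.0473). dct (-0.80, adjusted p = 0.0531), tyr (-0.77, adjusted p = 0.0531), camk2d2 (-1.01, adjusted p = 0.0506) and slc45a2 (-0.51, adjusted p = 0.0634) were apart below without passing. The other camk2d2 probe overlapped at -0.82 (adjusted p = 0.157). slc24a5 overlapped at -0.52 (adjusted p = 0.154) on its brighter probe and was apart below at -0.58 (adjusted p = 0.092) on its other probe. Over 22 detected members 13 were apart below against 11.9% of genes, and the median was -0.55. The genes of yellow and silver pigment cells had a median of 0.22 and 0 calls by limma in 19 members. At an unadjusted p under 0.05, 2 were above and 0 below, against 1509 above and 1137 below of all 10384 genes.

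The lists of tissues beyond the nervous system had few calls. Muscle contractile genes had 0 calls by limma in 48 members (median 0.13, 10 at an unadjusted p under 0.05 above and 1 below), erythroid genes 0 in 16 (median -0.03, 1 above and 2 below at that limit) and hatching gland genes 0 in 8 (median 0.09, 0 either way). Of all 10384 genes, 1509 were above and 1137 below at that unadjusted limit. The methods' t-test with Benjamini-Hochberg adjustment called 0 of the members of the 7 lists without a call. It called only 7 list members in all, so this 0 carries little weight. Normexp background correction called 4 muscle genes higher, and 1 erythroid and 1 stress gene in each direction. It also called 1 pituitary and secretory granule gene lower, and 0 in the other lists without a call. The liver and pancreas list, of 28 members, had 1 call, prox1a, which it shares with the retinal list. The immune list had 1 in 30, irf7, an interferon regulator, at 5.18, 5.41 and 5.30 against 4.34 and 4.60 in control morphants and 4.50 and 4.52 in WT (0.81 ± 0.12, adjusted p = 0.0473). The early response gene fosab had a wider difference, 1.74, but a control morphant array read above a labelled one.

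Values of the neuronal list also differed between the 48 and 50 hpf arrays. Age and slide coincide, and each age holds 1 WT and 1 control array, so such differences cannot be assigned to age. The neuronal list deviated from its 7-array mean by 0.11 and 0.60 on the WT arrays at 48 and 50 hpf, by 0.05 and 0.35 on the control morphants, and by -0.24 on the labelled array at 48 hpf and -0.55 and -0.33 on those at 50 hpf. The other groups thus stood higher at 50 hpf than at 48 hpf and the labelled morphants did not. A test of whether the labelled difference depended on age called 0 of 30505 probes by limma, with 1214 at an unadjusted p under 0.05. Over all probes the share under that limit was smaller than the 0.05 expected by chance, so the test gave no sign of a widespread dependence on age. That share does not answer for the neuronal list, which was not tested by itself. Its median difference was -0.29 at 48 hpf, with 1 labelled array, and -0.94 at 50 hpf. With so few arrays the test may have missed such a dependence. At 50 hpf the first labelled array deviated by more than the second for the p53 list (0.45 against 0.32). The same held for the retinal list (-0.58 against -0.33) and the ribosome biogenesis list (0.40 against 0.27). These are differences between single arrays, which may also differ in morpholino dose, and have no replicate check.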

How the data were processed

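Labelled cRNA of whole larvae was hybridized to Agilent one-colour zebrafish arrays. Per the file headers, the deposited intensity values were background-subtracted and detrended within each array by Feature Extraction 10.7.3.1 (10.5.1 in the submitters' processing notes). The deposited log2 matrix was quantile normalized by the authors and served as an alternative; its columns share a median of 5.59, and direction and scale match the scanner values. The time-course arrays were not used.

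Processed signals were log2 transformed, outlier spots (5 to 15 per array) set to missing, the spots of each probe averaged and the 7 arrays quantile normalized (limma 3.58.1, R 4.3.3). Probes well above background on at least 6 of 7 arrays were kept. A missing spot left its array out of that probe's fit, in 34 probes. Of 43603 probes, 16624 matched 11482 genes through RefSeq accessions (names from assembly GRCz12tu). 3 arrays were tested against 4 by limma's moderated test with Benjamini-Hochberg adjustment over all 30505 probes, and the 3 groups in a second fit. Named were the list members and the 15 called genes with the largest difference in each direction whose arrays lay apart. Also named were 12 genes from the study's own account of mitfa. Most of these were reported there as lower in mitfa morphants, so their direction was known beforehand. Some list members are counted but not reported singly here. The lists and comparisons were chosen with earlier results of these data known. Alternatives covered scaling, background, filter, age block, each control group, each array and the t-test of the methods. The fit was tested on simulated data. The number of arrays limits the precision.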

Additional observations from a re-analysis of the deposited data

How the results depend on the processing

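The counts of calls moved with nearly every choice. Of 77 genes followed through the other settings, 0 changed direction while called. That result was largely fixed beforehand, since the labelled arrays lay wholly above or below the others in all 366 called probes. Leaving out an array, a control group or an age can hardly reverse such a difference. The 0 is therefore not a test of how firm the directions are. The deposited matrix and a filter on every array of one side kept the counts of called probes within 1.5 times of the 135 lower and 231 higher. Called probes lower and higher numbered 24 and 74 after scaling to the 75th percentile, 802 and 946 after normexp background correction, 8 and 21 with no detection filter, and 364 and 447 with probes detected on all 7 arrays. They numbered 6 and 13 with age as a block (slide and age coincide, so this is also the slide block), 0 and 0 with the 50 hpf arrays only, 3 and 10 with control morphants as the only controls, and 11 and 43 with WT as the only controls. The methods' t-test called 154 lower and 118 higher at the limits of the methods and 20 and 53 after Benjamini-Hochberg adjustment. The arrays at 48 hpf alone, 1 against 2, gave differences but no test. No paired analysis was possible because the labels carry no replicate numbers shared between groups; the age block matches the arrays by collection and slide instead. The cause of these shifts was not tested.

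Without 1 array in turn, 3 to 43 probes were called lower and 4 to 77 higher. Both counts were largest without the control morphant at 48 hpf; without any other array they were at most 3 lower and 11 higher. Called list members, 49 in all, numbered 1 to 17 without 1 array. They numbered 18 after 75th percentile scaling, 137 after normexp, 5 with no filter, 86 with detection on all 7 arrays, 3 with the age block, 0 at 50 hpf only, 1 with control morphants only, 7 with WT only, 134 with the mean of a gene's probes, and 29 and 7 by the methods' t-test before and after adjustment. Control morphants against WT gave 0 probes with the age block or no filter, 5 after normexp and 0 to 4 without 1 array, against 1.

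A rule chosen after seeing the data, groups apart and over 2-fold, gave 90 genes lower and 67 higher. These became 30 and 25 after normexp, 343 and 176 at 50 hpf only, 213 and 170 with WT only, and 56 to 163 and 56 to 110 without 1 array. Signals not far above background limit all of these values, and normexp with its offset narrows differences of dim probes.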

Other observations

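Of the 167 called genes, 118 belonged to none of the lists, 35 lower and 83 higher. The genes named here were chosen after their values were seen. Among the higher ones were further genes of RNA processing: the RNase P and MRP subunit genes rpp30 (0.72) and rpp40 (0.87), the exosome gene exosc8 (0.72), the RNA polymerase I gene polr1f (0.74), the anti-association factor gene eif6 (0.71), and abt1 (0.88), dnttip2 (0.92) and gtf3aa (1.27), the last encoding the transcription factor of 5S ribosomal RNA. Mitochondrial import and assembly genes were timm8a (0.95), chchd4b (0.97) and cox17 (0.76). foxi1 rose by 1.26, ckmt1, a mitochondrial creatine kinase gene, by 1.16, and her3, a Notch-related repressor gene of the neural plate, by 1.01. Among the lower ones were genes of axon growth and neuronal differentiation: dpysl3 (-0.84), cdk5r1a (-0.91, well above background on 2 of the 3 labelled arrays), lingo1b (-1.02), sox4a (-0.90), scrt1b (-0.74), lmo1 (-1.01) and tal2 (-0.97). ccng2, a cyclin G gene, fell by 0.98, opposite to ccng1 at 1.22.

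The array held 43603 probes. Outside the tested set, 31 probes were well above background on all 3 labelled morphant arrays and on none of the 4 others, and 16 the reverse. Of the named ones, f2r2.1 was at least 6.58-fold lower and arl13a, a cilium gene of the Arl family, at least 4.79-fold lower on the labelled arrays. A probe of rhcga was at least 2.50-fold higher there and a probe of bbc3 at least 3.03-fold higher. The direction of all these probes follows from how they were picked, so it adds no evidence for the tested probes.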
